A study of Mus musculus with 45 samples.

Results

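Chemokines, interleukins and their receptors were followed across 3 tissues, 2 mouse strains and 2 diets. The members were all genes whose array symbol begins with Ccl, Cxcl, Cx3cl, Xcl, Ccr, Cxcr, Cx3cr or Il and a number, on probe sets that name exactly 1 gene. This rule took in 98 probe sets, of which 2 were control probe sets and were not tested, and gave 83 of the 8251 genes tested. They were 14 CC chemokines, 8 CXC chemokines, 2 other chemokines (Cx3cl1 and Xcl1), 14 chemokine receptors, 19 interleukins, 23 interleukin receptors and 3 antagonists or binding proteins (Il1rn, Il18bp and Il1f5, as the array names them). Each gene is given by 1 probe set, the one with the highest mean in the tissue, and 10 members have more than 1.

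The study measured RNA of 3 tissues, namely epididymal fat pads, liver and skeletal muscle, in C57Bl/6 mice (B6) and 129S6/SvEvTac mice (129S6) on 45 Affymetrix arrays. The design text puts the age at 6 months, and each array carried cRNA from 25 µg of RNA pooled from 2 to 3 mice. The labels give each group's diet as low-fat or high-fat. Only 1 diet is described in the design text: carbohydrate supplied 57% of its calories, protein 22% and fat 21%. Which labelled diet this was, the make-up of the other diet and the time on each diet are not stated in the sources at hand. The labels name no altered allele and no agent besides diet. Liver had 4 arrays in each of the 4 groups of strain and diet. Muscle had 3 B6 low-fat arrays and 4 in each other group. In fat, both B6 groups had 4 arrays and both 129S6 groups had 3. Nothing says that 2 arrays of a group came from separate cohorts or cages, so p-values reflect the variation among these pools.

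Chemokines are small secreted proteins that draw white blood cells along a gradient, and they act through receptors with several membrane spans that couple to G proteins. Interleukins carry signals between immune and tissue cells, mostly through receptors made of a ligand-specific chain and a shared signalling chain such as Il6st (gp130). In obese adipose tissue, Ccl2 and its receptor Ccr2 are known for recruiting monocytes that become macrophages. Il6 acts on hepatocytes through Il6ra, and Il1rn is the natural antagonist of the Il1 receptor.

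Values are log2 expression values made with RMA, a method that corrects background, equalises the arrays and summarises each probe set, so a difference of 1 is a doubling. Diet differences are given as high-fat minus low-fat. Strain differences are given as the B6 value minus the 129S6 value. A difference was called when limma's Benjamini-Hochberg adjusted p over all 8251 genes was under 0.05, and errors of differences are standard errors. Tissue identity was checked on marker genes. The liver protein Alb was between 12.62 and 13.5 in every liver array, the adipocyte hormone Adipoq between 11.38 and 12.88 in every fat array, and the muscle creatine kinase Ckm between 9.87 and 12.08 in every muscle array. Alb also reached 11.12 in 1 low-fat 129S6 fat array, and Adipoq was between 8.62 and 10.34 in muscle. Array medians lay between 6.07 and 6.24. RMA gives no detection call, and 57 of the 83 members lay below the array median in over 50% of the arrays, so many members were dim. The number of arrays limits the precision. In bulk tissue, fewer cells of a type and less RNA per cell cannot be told apart.

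Of the 83 members, 39 were called in at least 1 of the 15 comparisons of strain and diet within a tissue (47.0%, against 51.2% of all genes), and 44 in none. The 12 group means of a member spanned a median of 0.72 log2 units, against 0.95 over all genes. For 58 members (69.9%, against 53.3% of all genes) the span was within 1 log2 unit, and for 7 it was over 2. These 7 were the chemokines Ccl2, Ccl9, Ccl8, Cxcl9, Cxcl14 and Ccl7 and the receptor Ccr2. The widest span was that of Ccl2, 4.34 log2 units, from 129S6 low-fat liver to B6 high-fat fat. The narrowest was that of Il5ra, a chain of the interleukin-5 receptor, at 0.23.

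**Figure D1:**
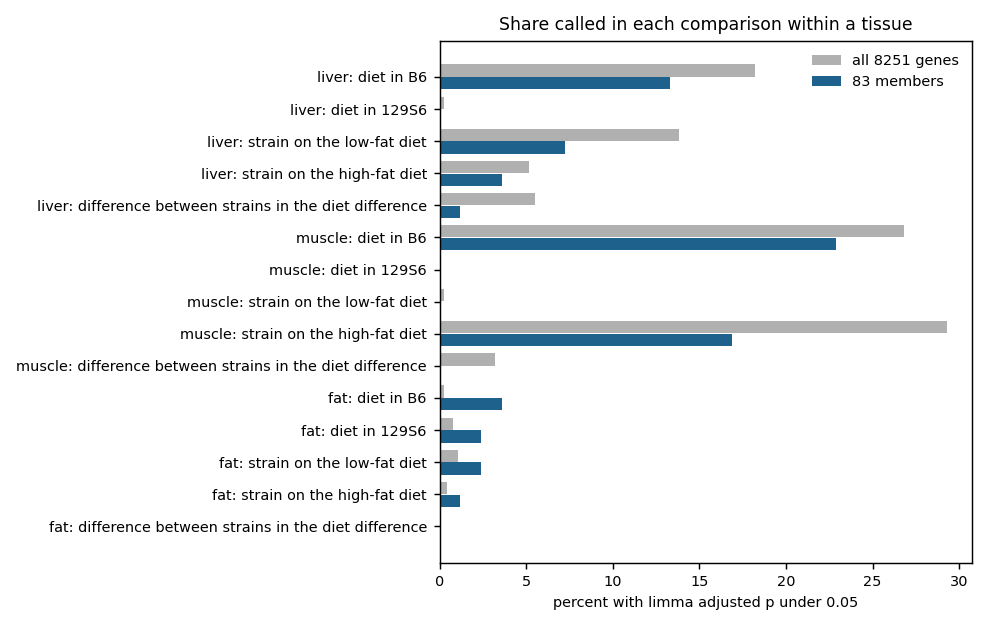
Percent of the 83 members (blue) and of all 8251 genes (grey) with a limma adjusted p under 0.05, for each comparison of diet or strain within a tissue. In fat the members' share was above that of all genes in 4 of the 5 comparisons, and in the fifth both were 0; in liver and muscle it was below or at that of all genes.

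In epididymal fat, chemokine ligands were the members called, and no interleukin, interleukin receptor or chemokine receptor was called. On the high-fat diet Ccl8, Ccl9 and Cxcl9 were higher in B6 fat, and Ccl2 and Ccl9 in 129S6 fat. Ccl2 and Ccl7 were higher in B6 than in 129S6 fat on the low-fat diet, and Ccl8 was higher in B6 on the high-fat diet. None of these calls held under every alternative fit, and RNA quality also differed between the diets, as given below. Diet called 3 of 83 members in B6 (3.61%), all higher, where 0.279% of all genes were called and 0.23% called higher. It called 2 in 129S6 (2.41%), both higher, against 0.751% of all genes, 0.448% higher. Strain called 2 on the low-fat diet (2.41%), against 1.08% (0.4% higher), and 1 on the high-fat diet (1.2%), against 0.436% (0.303% higher). All of these were higher in B6.

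Ccl2 (monocyte chemoattractant protein 1) measured 7.78, 7.21, 7.95 and 7.74 in the low-fat B6 fat arrays and 8.01, 7.63, 9.5 and 8.0 in the high-fat B6 arrays. In 129S6 fat it measured 4.47, 4.29 and 4.97 on the low-fat diet and 7.16, 7.6 and 6.77 on the high-fat diet. The low-fat 129S6 arrays were far below the other 3 groups and overlapped none of them, while the B6 groups overlapped each other. The strain difference on the low-fat diet was 3.10 ± 0.37 (8.55-fold, adjusted p = 0.00102), and it was called in every leave-one-out fit. The diet difference was 2.61 ± 0.40 in 129S6 (6.09-fold, adjusted p = 0.00886) and 0.61 ± 0.34 in B6 (adjusted p = 0.381). The test of the difference between these diet differences gave -1.99 ± 0.53 with an adjusted p of 1.0. With all arrays, a difference between the strains in the response of Ccl2 was thus not shown. That test then called 0 of the 83 members in fat by limma, with 5 at an unadjusted p under 0.05, and 0.0% of all genes. Leaving out high-fat B6 replicate 7 made the Ccl2 difference -2.4, which was called, so this outcome hangs on 1 array. Without replicate 9 or replicate 10 of the low-fat 129S6 group the diet call for Ccl2 was lost, with adjusted p up to 0.0666.

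Ccl7, a further monocyte attractant, followed the same order at lower values. It measured 5.79, 4.95, 5.76 and 5.61 in low-fat B6 fat, 5.89, 5.52, 7.08 and 5.52 in high-fat B6 fat, 3.76, 3.74 and 4.12 in low-fat 129S6 fat and 5.34, 4.98 and 5.23 in high-fat 129S6 fat. The low-fat 129S6 arrays again lay below all others. Its strain difference on the low-fat diet was 1.65 ± 0.33 (adjusted p = 0.026), and its diet difference in 129S6, 1.31 ± 0.35, was not called (adjusted p = 0.131). The strain call of Ccl7 was lost without any 1 of the 3 low-fat 129S6 arrays, or without low-fat B6 replicate 1, 4 or 5, with adjusted p up to 0.15, which left Ccl2 as the 1 member called.

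Ccl8 (monocyte chemoattractant protein 2) measured 8.49, 8.42, 8.87 and 8.33 in low-fat B6 fat and 9.54, 9.29, 9.92 and 9.87 in high-fat B6 fat. In 129S6 fat it measured 7.76, 7.66 and 7.89 on the low-fat diet and 7.97, 7.64 and 7.47 on the high-fat diet. High-fat B6 arrays lay above every other fat array, and the 129S6 groups overlapped each other. The diet difference in B6 was 1.13 ± 0.17 (adjusted p = 0.0163), and the strain difference on the high-fat diet was 1.96 ± 0.18 (3.89-fold, adjusted p = 0.000118). The latter was called in every leave-one-out fit. The diet difference of Ccl8 was 1.20 ± 0.26 larger in B6 than in 129S6, which was not called (adjusted p = 0.722). The diet call in B6 was lost without low-fat B6 replicate 1, 3 or 5 or high-fat B6 replicate 8, with adjusted p up to 0.0823.

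Ccl9, a CC chemokine of the macrophage inflammatory protein family, was the member called for diet in fat of both strains. It measured 9.89, 9.58, 10.28 and 9.69 in low-fat and 11.08, 10.77, 10.99 and 11.63 in high-fat B6 fat, a difference of 1.26 ± 0.22 (adjusted p = 0.0392). In 129S6 it measured 9.32, 9.04 and 9.88 on the low-fat and 10.84, 11.06 and 10.58 on the high-fat diet, a difference of 1.42 ± 0.26 (adjusted p = 0.0263). In each strain all high-fat arrays lay above all low-fat arrays. The call in B6 was lost in 10 of 14 leave-one-out fits of Ccl9 (adjusted p up to 0.179) and that in 129S6 in 4 of 14 (up to 0.15).

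Cxcl9, an interferon-induced attractant of activated T cells, measured 5.76, 5.51, 5.2 and 5.36 in low-fat and 6.38, 6.63, 7.42 and 8.18 in high-fat B6 fat. In 129S6 it measured 5.98, 5.68 and 5.58 on the low-fat and 6.29, 6.25 and 5.63 on the high-fat diet. The B6 groups did not overlap, and those of 129S6 did. The diet difference of Cxcl9 in B6 was 1.70 ± 0.32 (3.24-fold, adjusted p = 0.0492), close to the threshold, and it was called in only 2 of 14 leave-one-out fits. No member was called for diet in B6 fat without low-fat replicate 1, 3 or 5 or high-fat replicate 8. One remained without low-fat B6 replicate 4, low-fat 129S6 replicate 9 or 10 or high-fat 129S6 replicate 12 or 14.

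**Figure D2:**
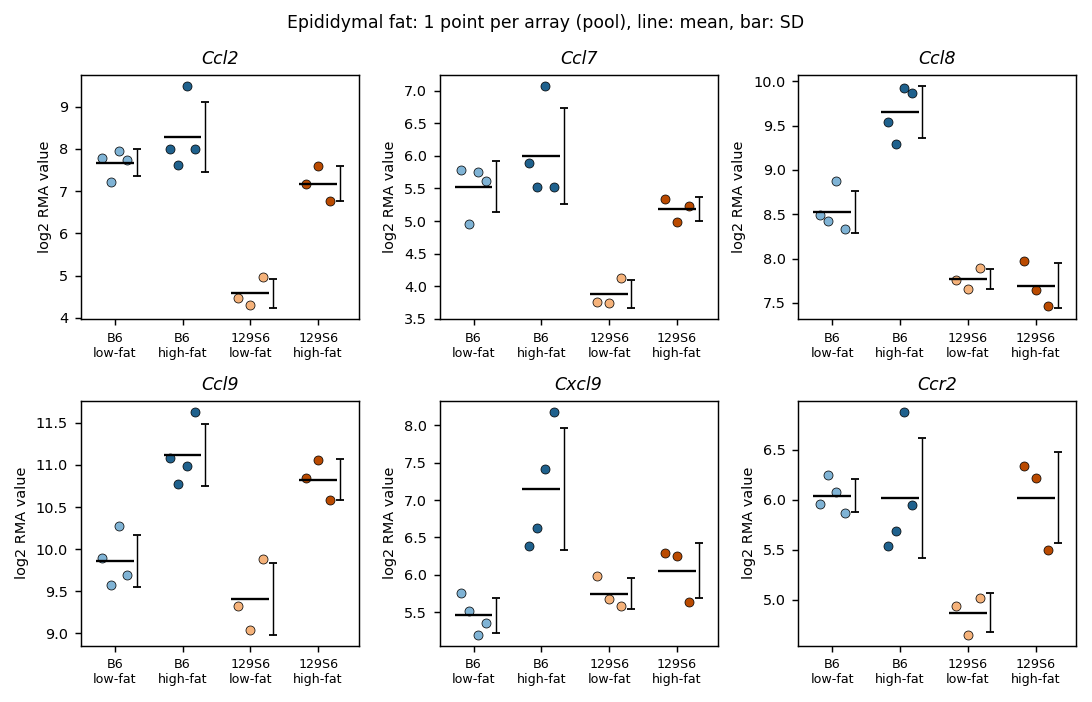
Log2 RMA values of 5 chemokines and the receptor Ccr2 in epididymal fat, 1 point per array, with the group mean (line) and SD (bar). The low-fat 129S6 arrays of Ccl2 lie between 4.29 and 4.97, below all others, and the high-fat B6 arrays of Ccl8 lie between 9.29 and 9.92, above all others.

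Of the members called in fat, Ccl2 and Ccl7 had no match in the promoter table used and are not shown. The stretches below are those around the starts of the other 3, Ccl8, Ccl9 and Cxcl9, which were called for diet in B6 fat. They are RefSeq promoters of build GRCm38.p6, 250 bases before to 50 after the gene start, in the direction of the gene, and 66 of the 83 members have one in the table used. Ccl8 is at chr11:82114935-82115234 (plus strand), Ccl9 at chr11:83578587-83578886 (minus strand) and Cxcl9 at chr5:92328030-92328329 (minus strand). Capitals mark matches on either strand to the kappaB motif, the site of NF-kappaB, and to TATAAA, the TATA box.
Ccl8: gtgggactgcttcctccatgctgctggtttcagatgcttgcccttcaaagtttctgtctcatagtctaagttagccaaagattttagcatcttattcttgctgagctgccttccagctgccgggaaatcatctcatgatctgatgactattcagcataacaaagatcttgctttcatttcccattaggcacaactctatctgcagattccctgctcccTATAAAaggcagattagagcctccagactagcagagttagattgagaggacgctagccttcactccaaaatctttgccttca
Ccl9: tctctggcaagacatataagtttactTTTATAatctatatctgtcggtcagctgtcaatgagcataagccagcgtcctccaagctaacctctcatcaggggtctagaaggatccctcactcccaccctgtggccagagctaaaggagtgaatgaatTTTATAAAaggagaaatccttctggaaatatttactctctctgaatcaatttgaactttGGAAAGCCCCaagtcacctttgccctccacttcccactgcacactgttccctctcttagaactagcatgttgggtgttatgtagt
Cxcl9: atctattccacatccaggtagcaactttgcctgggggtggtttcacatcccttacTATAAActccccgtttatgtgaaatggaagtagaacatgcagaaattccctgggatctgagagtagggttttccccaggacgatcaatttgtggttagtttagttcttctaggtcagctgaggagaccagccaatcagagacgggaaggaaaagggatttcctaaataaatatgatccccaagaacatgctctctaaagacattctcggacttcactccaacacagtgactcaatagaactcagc
Ccl8 holds TATAAA at bases 219 to 224, just before the gene start. Ccl9 holds a kappaB match on the minus strand at bases 216 to 225, and TATAAA at bases 27 to 32, 157 to 162 and 159 to 164, the last 2 overlapping on opposite strands. Cxcl9 holds TATAAA at bases 56 to 61. Further motifs were searched on both strands and are not in capitals. TGANTCA (AP-1) was found in Ccl9 at bases 198 to 204 and in Cxcl9 at bases 282 to 288, while TTGCNNAA (C/EBP) and TTCNNNGAA (GAS) were in none of the 3 stretches. Of 32851 promoters of the same length, 8.46% hold the kappaB motif, 13.6% TATAAA, 7.81% TGANTCA, 10.8% TTGCNNAA and 8.3% TTCNNNGAA. A match is a description of these letters only. In the RefSeq gene order, Ccl2, Ccl7, Ccl11, Ccl12, Ccl8 and Ccl1 are consecutive protein-coding genes of chromosome 11, which holds 18 of the members, and Ccl9 lies further on among Ccl5, Ccl6, Ccl3 and Ccl4. Cxcl9 is 1 of 7 members on chromosome 5.

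Among receptors in fat, Ccr2, the receptor of Ccl2 and Ccl7, measured 5.96, 6.25, 6.08 and 5.87 in low-fat B6, 5.54, 5.69, 6.88 and 5.95 in high-fat B6, 4.94, 4.65 and 5.02 in low-fat 129S6 and 6.34, 6.22 and 5.5 in high-fat 129S6 arrays. The low-fat 129S6 arrays were the lowest, as for its ligands. The strain difference of Ccr2 on the low-fat diet was 1.17 ± 0.28 (adjusted p = 0.0808) and the diet difference in 129S6 was 1.15 ± 0.30 (adjusted p = 0.125), neither called. Cxcr4, the receptor of Cxcl12, differed with diet by 0.57 ± 0.21 in B6 (adjusted p = 0.262). Its ligand Cxcl12 differed by 0.28 ± 0.13 (adjusted p = 0.34). Ccl5, a T cell and monocyte attractant, had diet differences of 0.77 ± 0.25 in B6 (adjusted p = 0.241) and 0.64 ± 0.29 in 129S6 (adjusted p = 0.353). Ccl11 (eotaxin) had a strain difference of 0.76 ± 0.18 on the high-fat diet (adjusted p = 0.126). None of these passed the test.

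The classical inflammatory interleukins showed little difference between fat groups. Il6 group means lay between 2.97 and 3.12, near the floor of these values, which begin at 2.26. Group means of Il1b lay between 4.52 and 4.76 and those of Il10 between 5.03 and 5.33. For these 3 genes no diet or strain difference in fat exceeded 0.31 log2 units, and adjusted p was 0.439 or more. For the gp130 chain Il6st a second probe set read lower and ran the other way. It averaged 7.33 ± 0.18 (SD, n = 3) in low-fat 129S6 fat and 5.44 ± 0.83 (SD, n = 3) in high-fat 129S6 fat, a difference of -1.89 (adjusted p = 0.142), while the main probe set of Il6st averaged 8.21 and 8.35.

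Of 62 fixed genes of cytokine and chemokine signalling outside the rule (atypical receptors, Jak, Stat and Socs genes, NF-kappaB genes and others), 50 were measured. In fat none was called by limma in any comparison; at an unadjusted p under 0.05 there were 8 for diet in B6, 12 for diet in 129S6, 5 for strain on the low-fat diet and 2 for strain on the high-fat diet. Macrophage markers differed between the fat groups. All 14 listed markers were measured, and the log2 of their summed level was between 12.9 and 13.45 in low-fat B6 fat, 13.13 and 13.9 in high-fat B6, 11.92 and 12.41 in low-fat 129S6 and 12.35 and 13.04 in high-fat 129S6 fat. Between the strains on the low-fat diet all 14 were higher in B6, with a median difference of 0.88, and Lgals3, Lyz2 and Mpeg1 were called. With diet in 129S6, 12 of 14 were higher (median 0.71) and Lgals3 and Mpeg1 were called. With diet in B6, 11 of 14 were higher (median 0.57) and none was called by limma, with 7 at an unadjusted p under 0.05. Between the strains on the high-fat diet, where Ccl8 differed, 12 of 14 were higher in B6 (median 0.62) and none was called, with 4 at an unadjusted p under 0.05. The part of these cells in the chemokine differences was not tested. The summed level of the 10 measured T and NK cell markers stayed between 8.99 and 9.49 in all fat groups. Hepatocyte markers were uneven in fat, and the log2 of their summed level was highest in low-fat 129S6 arrays, at 9.89 to 11.86, against 7.92 to 10.27 in high-fat B6 arrays. Of the other lists, limma called Cd3d (T cells) higher in B6 on the high-fat diet, on the low-fat diet Vwf (endothelium) lower and Lep (adipocytes) higher in B6, Upk3b (mesothelium) lower with diet in both strains, and Lep higher and Retn lower with diet in 129S6. No marker of B cells, neutrophils, mast cells, hepatocytes, skeletal muscle or epididymis was called in fat. Summed epididymis markers were uneven, at 8.04 to 12.75 in low-fat B6 and 7.36 to 12.01 in high-fat B6 fat. In 129S6 fat they were 6.98 to 9.62 and 7.46 to 8.09. All 3 measured were higher in B6, with a median difference of 2.09 on the low-fat and 1.1 on the high-fat diet. Summed B cell markers were 11.26 to 11.84 and 10.08 to 12.47 in B6 and 10.12 to 10.68 and 9.38 to 10.03 in 129S6 fat, low-fat first. The part of all these in the chemokine differences was not tested either.

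RNA quality differed between the diets in fat. The Gapdh control probe sets at the 3′ and 5′ ends of the transcript differed by at most 0.24 in every low-fat fat array, but by 6.03 in high-fat B6 replicate 7 and by 5.81 and 5.93 in high-fat 129S6 replicates 12 and 13. High-fat B6 replicate 8 was at 2.36. High-fat B6 replicate 7 also held the highest Ccl2, Ccl7, Ccr2 and Ccl8 values, that of Ccl8 by a small margin. Its macrophage markers went different ways, with Adgre1 at 10.18, above the other B6 arrays, and Cd68 at 7.86 and C1qb at 7.51, below them. Without these 3 arrays, diet in B6 called 5 members (Ccl5, Ccl8, Ccl9, Cxcl9 and Cxcr4, all higher) and diet in 129S6 called Ccl2, Ccl7 and Cxcr4. The diet difference of Ccl2 in 129S6 was then 2.20 (adjusted p = 0.00342) and that of Ccl9 1.17 (adjusted p = 0.146). Strain then called 7 on the low-fat diet (Ccl2, Ccl5, Ccl7, Ccl8, Ccr2 and Il13ra2 higher and Il15ra lower) and 2 on the high-fat diet (Ccl5 and Ccl8). High-fat 129S6 then had 1 array, which was taken to vary like the other groups. Leaving out high-fat B6 replicate 7 alone raised the counts to 8 for strain on the high-fat diet, 4 for diet in 129S6 and 5 for strain on the low-fat diet. The test between the strains then called 1 member, Ccl2, where it had called 0. Leaving out high-fat 129S6 replicate 14 gave 4 for diet in 129S6, and leaving out replicate 12 or 13 gave 1. With the Gapdh 3′ minus 5′ difference as a covariate on all fat arrays, diet in B6 called Ccl8 and Cxcr4. The B6 calls of Ccl9 and Cxcl9 were lost in that fit. Diet in 129S6 called Ccl2 alone with this covariate, and the call of Ccl9 was lost there too.

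Array numbers in the titles were read as runs, though the labels do not say what the numbers mean. All B6 fat arrays with 1 low-fat 129S6 array were of 1 run and the other 129S6 fat arrays of another. The high-fat strain difference, as called for Ccl8, thus had no comparison within a run, and only the low-fat 129S6 arrays bridge the runs. With the run as a block no member was called for either strain comparison or for diet in 129S6. Within the run of the B6 arrays, where 4 low-fat B6 arrays met 1 of 129S6, the strain difference was 3.20 for Ccl2 (adjusted p = 0.00419) and 1.76 for Ccl7 (adjusted p = 0.0407). These p-values take the lone 129S6 array to vary like the B6 arrays, since it has no spread of its own. Within the other run the diet difference of Ccl2 in 129S6 was 2.55 (adjusted p = 0.0798) and that of Ccl9 1.37 (adjusted p = 0.189).

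In liver, the high-fat diet was accompanied in B6 by higher Ccl2, Il6ra and Il1rn and lower Ccl9, Cxcl12, Il13ra1 and Cxcr5, while no member was called in 129S6. In B6, 11 of 83 members were called (13.3%), 7 higher and 4 lower, against 18.2% of all genes, so the members' share was not above the background. By direction, 8.43% of members were higher, against 6.21% of all genes, and 4.82% lower, against 12.0%. In 129S6 liver limma called 0 members, with 3 at an unadjusted p under 0.05, and 0.23% of all genes. The smallest p values there were those of Il1r1, the signalling receptor of Il1 (difference -0.32 ± 0.12, adjusted p = 0.647), and Ccl9 (-0.38 ± 0.14, adjusted p = 0.649).

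Ccl2 measured 4.27, 4.04, 4.22 and 4.47 in low-fat B6 liver and 6.58, 5.0, 4.87 and 5.33 in high-fat B6 liver. In 129S6 it measured 4.09, 4.27, 3.69 and 3.74 on the low-fat and 4.16, 4.03, 4.21 and 3.99 on the high-fat diet. All high-fat B6 arrays lay above all other liver arrays, and replicate 13 was the highest. With diet, Ccl2 differed in B6 by 1.19 ± 0.26 (adjusted p = 0.00529) and the strain difference on the high-fat diet 1.35 ± 0.26 (adjusted p = 0.00543). Without replicate 13 the first was 0.82 (adjusted p = 0.00196) and the second 0.97 (adjusted p = 0.000881).

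Ccl9 ran the other way in liver. It measured 9.14, 9.1, 9.2 and 9.4 in low-fat and 8.95, 8.4, 8.34 and 8.67 in high-fat B6 liver, against 10.0, 10.08, 10.59 and 10.36 in low-fat and 9.82, 9.71, 10.07 and 9.9 in high-fat 129S6 liver. Every B6 array lay below every 129S6 array, and within B6 the high-fat arrays lay below the low-fat ones. The strain difference of Ccl9 was -1.05 ± 0.14 on the low-fat diet (adjusted p = 0.000147) and -1.29 ± 0.14 on the high-fat diet (adjusted p = 3.24e-05), and the diet difference in B6 was -0.62 ± 0.14 (adjusted p = 0.00736). With the array SD as a covariate the diet difference was -0.30 (adjusted p = 0.264), so this diet call of Ccl9 was lost, and both strain calls held. The array SD itself set low-fat B6 liver apart, as given below. In fat the diet differences of Ccl9 were positive in both strains; the difference between the tissues was not tested.

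Cxcl12, which holds cells that bear Cxcr4 in place, measured 9.19, 9.11, 8.95 and 9.24 in low-fat and 8.61, 8.73, 8.48 and 8.59 in high-fat B6 liver. In 129S6 it measured 8.53, 8.04, 8.71 and 8.79 on the low-fat and 8.59, 8.75, 8.79 and 8.55 on the high-fat diet. Low-fat B6 liver stood above the other 3 groups without overlap. With diet, Cxcl12 differed in B6 by -0.52 ± 0.13 (adjusted p = 0.0125) and the strain difference on the low-fat diet 0.60 ± 0.13 (adjusted p = 0.00611). The B6 diet difference less the 129S6 one was -0.67 ± 0.19 (adjusted p = 0.0446), which made Cxcl12 the 1 member of 83 called in that test in liver, where 5.49% of all genes were called, 4.63% in that direction. That call held in 5 of 16 leave-one-out fits. It was lost without any 1 of low-fat B6 replicates 1, 2 and 4, high-fat B6 replicates 13, 15 and 16, low-fat 129S6 replicate 5 and the 4 high-fat 129S6 arrays, and the count was 3 without low-fat 129S6 replicate 11 and 2 without replicate 6. A second probe set of Cxcl12 gave -0.44 for diet in B6 (adjusted p = 0.017) and 0.49 for strain on the low-fat diet (adjusted p = 0.0119), and the other gave -0.05 and 0.17, neither called. In the test between the strains these 2 probe sets gave -0.53 (adjusted p = 0.0812) and 0.05 (adjusted p = 0.943).

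Cxcl1, a neutrophil attractant, measured 7.0, 6.96, 6.43 and 7.26 in low-fat B6 and 6.16, 6.07, 5.76 and 6.16 in low-fat 129S6 liver, with no overlap. Its strain difference on the low-fat diet was 0.88 ± 0.25 (adjusted p = 0.026), and a second probe set of Cxcl1 gave 0.30 (adjusted p = 0.302). The call was lost without low-fat B6 replicate 1, 2 or 4 or low-fat 129S6 replicate 6. Smaller calls among chemokines and their receptors were higher Ccl4 (0.34), Ccr1 (0.33), Ccl8 (0.32) and Ccr8 (0.32) and lower Cxcr5 (-0.48 ± 0.12, adjusted p = 0.0134), all for diet in B6. Lower Ccr1l1 (-0.34) and Ccl12 (-0.28) were called for strain on the low-fat diet. In 16 leave-one-out fits, Ccr1l1 was lost in 11 (adjusted p up to 0.174), Ccr8 in 8 (up to 0.125), Ccr1 in 6 (up to 0.0983), Ccl12 in 4 (up to 0.104) and Ccl4 in 3 (up to 0.094). With only the groups compared, Ccr1l1 (adjusted p = 0.142) and Ccl12 (adjusted p = 0.118) were lost, and so was the low-fat strain call of Cxcl12 (0.60, adjusted p = 0.0542). Quantile normalization ended the calls of Ccl12 and Ccr8. Strain called 6 members on the low-fat diet (2 higher, 4 lower; 7.23%) against 13.8% of all genes (10.0% higher, 3.83% lower). On the high-fat diet it called 3 (2 higher, 1 lower; 3.61%) against 5.16% (3.03% higher, 2.13% lower).

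Il6ra, the ligand-binding chain of the Il6 receptor, measured 6.07, 6.09, 6.09 and 5.95 in low-fat B6 liver and 6.86, 6.83, 6.66 and 6.49 in high-fat B6 liver. In 129S6 it measured 7.17, 6.96, 6.4 and 7.18 on the low-fat and 6.61, 7.04, 7.27 and 7.12 on the high-fat diet. Low-fat B6 liver lay below all other liver arrays. With diet, Il6ra differed in B6 by 0.66 ± 0.16 (adjusted p = 0.00931) and the strain difference on the low-fat diet -0.88 ± 0.16 (adjusted p = 0.00169). Both were called in every leave-one-out fit. The difference between the strains in the diet difference was 0.58 ± 0.23 (adjusted p = 0.149). The partner chain Il6st differed with diet in B6 by 0.20 ± 0.19 (adjusted p = 0.507) on its main probe set. Its second probe set averaged 5.05 ± 0.18 (SD, n = 4) in low-fat and 5.99 ± 0.21 (SD, n = 4) in high-fat B6 liver, a difference of 0.94 (adjusted p = 0.00806), so the 2 probe sets of Il6st differed in call. Neither Il6 nor Il1b was called in liver.

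Il1rn measured 5.11, 4.94, 5.06 and 4.95 in low-fat and 6.07, 5.32, 5.34 and 5.35 in high-fat B6 liver. The groups did not overlap, and replicate 13 stood above the rest. The difference of Il1rn was 0.50 ± 0.14 (adjusted p = 0.021), and 0.32 (adjusted p = 0.0408) without replicate 13. Il13ra1, a chain of the Il4 and Il13 receptors, measured 5.78, 5.72, 6.05 and 5.69 in low-fat and 5.51, 5.11, 5.22 and 5.02 in high-fat B6 liver, with no overlap. Its difference was -0.59 ± 0.18 (adjusted p = 0.0338). Il15ra, the receptor chain that presents Il15, was higher in B6 on the high-fat diet by 0.32 ± 0.08 (adjusted p = 0.0351). The call of Il1rn was lost without low-fat B6 replicate 2 or 4 (adjusted p up to 0.0639) and that of Il13ra1 without any 1 of 7 B6 arrays (up to 0.0925). The call of Il15ra was lost without any 1 of 6 high-fat arrays (up to 0.114).

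**Figure D3:**
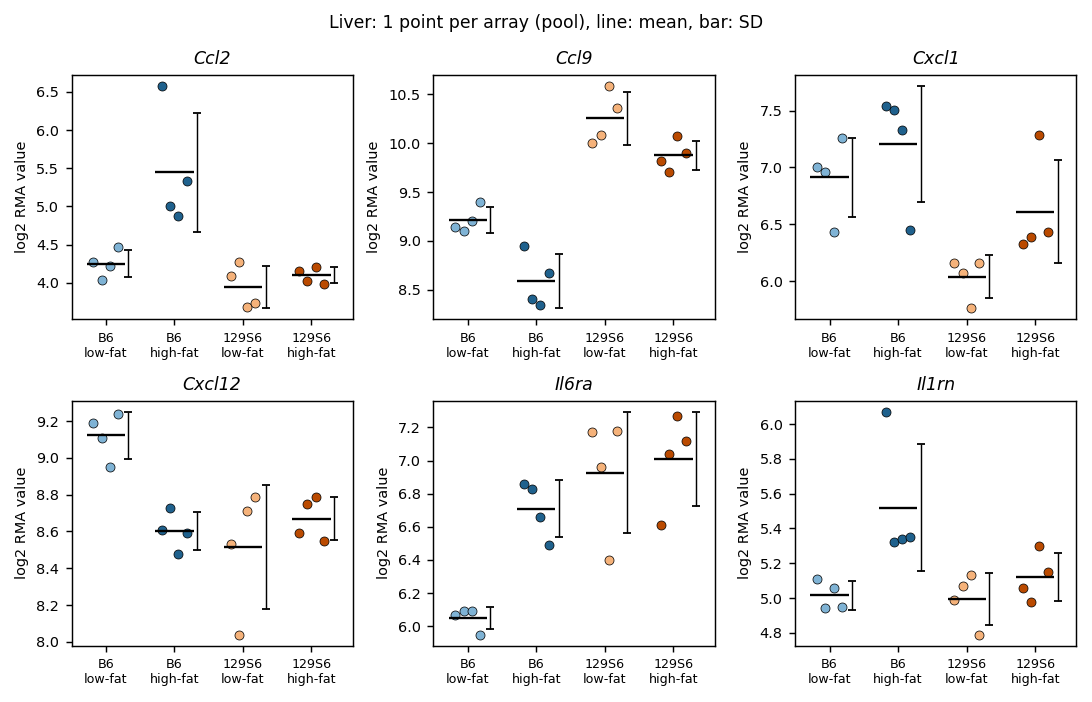
Log2 RMA values of 4 chemokines, Il6ra and Il1rn in liver, 1 point per array, with the group mean (line) and SD (bar). The high-fat B6 arrays of Ccl2 lie between 4.87 and 6.58, above all others, and the low-fat B6 arrays of Il6ra lie between 5.95 and 6.09, below all others.

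High-fat B6 liver replicate 13 stood apart. Its Ccl5 was 8.86, against 6.23 to 6.69 in the other 3 arrays of the group. Its Cd68 was 8.29 and its C1qb 9.73. Acta1, a skeletal muscle actin, was 9.57 there, the highest in liver, but was uneven elsewhere. It reached 8.68 in low-fat 129S6 and 7.48 in low-fat B6 liver. The log2 of the summed macrophage markers ran from 11.48 to 13.0 in high-fat and from 11.4 to 11.6 in low-fat B6 liver, and Cd14 and Lgals3 of the 14 were called for diet. Of 6 skeletal muscle markers, Ckm, Pvalb and Tnnc2 were called higher and Mb lower for diet in B6 liver, as were Cd3e, Cd8b1, Col1a1, Col1a2 and Defb1 of other lists, all higher. Their part in the member differences was not tested. Without replicate 13, diet in B6 called 10 members, and Ccr1 and Ccr8 were not among them. The count fell to 7 without low-fat B6 replicate 2 or 3 and to 5 without replicate 4, and for strain on the low-fat diet to 3 without low-fat B6 replicate 4 or low-fat 129S6 replicate 6. The SD of all log2 values on an array was 1.91 to 1.98 in low-fat B6 liver and 1.84 to 1.89 in high-fat B6 liver. In low-fat 129S6 liver it was 1.81 to 1.9. Low-fat B6 overlapped neither, so a fit with this SD can hardly tell it apart from that group. With the array SD as a covariate, the diet calls of Ccl2, Il6ra and Cxcr5 in B6 held. Those of Cxcl12 (-0.16, adjusted p = 0.472), Il13ra1 (-0.15, adjusted p = 0.689) and Il1rn (0.56, adjusted p = 0.0799) were lost. For strain on the low-fat diet, Ccl9 and Il6ra held and Cxcl12 (0.24, adjusted p = 0.321) and Cxcl1 (0.52, adjusted p = 0.387) did not, and the test between the strains for Cxcl12 gave -0.29 (adjusted p = 0.277). The Gapdh 3′ minus 5′ difference was 0.82 to 1.69 in low-fat and 0.22 to 0.35 in high-fat B6 liver, without overlap. With it as a covariate, the diet calls of Ccl4 (0.30, adjusted p = 0.0596), Ccr1 (0.25, adjusted p = 0.0985), Ccr8 (0.21, adjusted p = 0.147), Ccl8 and Il13ra1 (-0.40, adjusted p = 0.116) were lost, while those of Ccl2, Il6ra, Il1rn, Ccl9, Cxcl12 and Cxcr5 held. All low-fat B6 liver arrays were of 1 array run that held no other liver array. Their title numbers follow directly on those of the muscle arrays. Within liver, diet in B6 and strain on the low-fat diet thus cannot be told apart from the run. On the high-fat diet the B6 liver arrays were of 1 run and the 129S6 arrays of another, which the low-fat 129S6 arrays bridge. With the run as a block the high-fat strain calls of Ccl2 and Ccl9 held and that of Il15ra was lost (0.34, adjusted p = 0.218). Of the 50 pathway genes, 9 were called for diet in B6 liver (18.0%, against 18.2% of all genes), so their share was near the background. Ccrl2, Csf1, Csf2rb, Csf3r, Jak3, Osmr and Socs1 were higher and Lifr and Tollip lower.

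In skeletal muscle, 18 members were called higher and 1 lower with the high-fat diet in B6, and 12 were higher and 2 lower in B6 than in 129S6 on the high-fat diet. The 19 members called for diet are 22.9% of the 83, against 26.8% of all genes, and the 14 for strain are 16.9%, against 29.3%. By direction, 21.7% of members were higher with diet, against 14.8% of all genes, and 1.2% lower, against 12.0%. For strain 14.5% were higher, against 15.5%, and 2.41% lower, against 13.7%. In 129S6 muscle limma called 0 members for diet (1 at an unadjusted p under 0.05), with 0.0% of all genes. Strain on the low-fat diet called 0 (3 at an unadjusted p under 0.05), with 0.279% of all genes, and the test between the strains called 0 (29 at an unadjusted p under 0.05), with 3.19%. In 129S6 the smallest p for diet was that of Il1r1 (-0.29 ± 0.11, adjusted p = 0.992).

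Cxcl14, a CXC chemokine, was the 1 member called lower in both muscle comparisons. It measured 7.66, 7.17 and 7.18 in low-fat and 6.46, 6.86, 6.39 and 6.07 in high-fat B6 muscle, and 6.73, 7.3, 7.69 and 7.94 in low-fat and 7.48, 7.27, 7.41 and 7.98 in high-fat 129S6 muscle. High-fat B6 arrays lay below low-fat B6 and high-fat 129S6 arrays without overlap. With diet, Cxcl14 differed in B6 by -0.89 ± 0.27 (adjusted p = 0.0296) and the strain difference on the high-fat diet -1.09 ± 0.25 (adjusted p = 0.00878). The diet call was lost without low-fat B6 replicate 13 or 14 or high-fat B6 replicate 7 or 8 (adjusted p up to 0.135), and the strain call in no leave-one-out fit.

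Il6st measured 7.54, 7.54 and 7.73 in low-fat and 7.04, 6.61, 5.92 and 7.22 in high-fat B6 muscle, and 6.35, 7.65, 8.16 and 7.66 in low-fat and 8.23, 7.76, 7.69 and 8.06 in high-fat 129S6 muscle. High-fat B6 muscle was again below its counterparts. The strain difference of Il6st on the high-fat diet was -1.24 ± 0.33 (adjusted p = 0.0177), lost without high-fat B6 replicate 7 (adjusted p = 0.0516), and the diet difference in B6 was -0.90 ± 0.36 (adjusted p = 0.0717). A second probe set of Il6st gave 0.26 for strain (adjusted p = 0.343), of the opposite sign.

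The members called higher with diet in B6 muscle included ligands, receptors and an antagonist. They were Il11, Il12a, Il1a, Il2, Il3, Il4 and Il7 among 19 interleukins and Il10ra, Il27ra, Il3ra and Il9r among 23 receptors, with Ccl22, Ccl3, Ccl7, Cxcl2, Cx3cl1, Ccr3 and Il1rn. Il11, a cytokine that signals through gp130, measured 5.16, 5.47 and 5.56 in low-fat and 6.2, 6.61, 6.46 and 6.06 in high-fat B6 muscle, a difference of 0.94 ± 0.31 (adjusted p = 0.0409). The groups of Il11 did not overlap. Il27ra, the receptor chain for Il27, measured 7.65, 7.93 and 7.87 in low-fat and 8.44, 8.84, 8.83 and 8.25 in high-fat B6 muscle, a difference of 0.77 ± 0.25 (adjusted p = 0.039). Cx3cl1 (fractalkine), a membrane-bound chemokine, measured 6.89, 7.28 and 7.25 in low-fat and 7.35, 8.06, 7.93 and 7.85 in high-fat B6 muscle, a difference of 0.66 ± 0.21 (adjusted p = 0.0345). Neither gene's groups overlapped. A second probe set of Cx3cl1 gave 0.33 (adjusted p = 0.239). Il4, the cytokine of type 2 immunity, measured 3.98, 4.2 and 4.23 in low-fat and 4.57, 4.75, 5.32 and 4.59 in high-fat B6 muscle, a difference of 0.67 ± 0.19 (adjusted p = 0.0233), and 3 other probe sets of Il4 gave 0.33 to 0.35, with 1 of the 3 called.

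RNA quality differed with diet in B6 muscle, where the Gapdh 3′ minus 5′ difference was 0.35 to 0.81 in low-fat and 1.19 to 3.36 in high-fat arrays, without overlap. In high-fat 129S6 muscle it was 1.27 to 4.43, which overlaps high-fat B6. With this difference as a covariate 23 members were called for diet in B6 and 14 for strain on the high-fat diet, and the differences of Il11 (1.22, adjusted p = 0.0271) and Cxcl14 (-1.02, adjusted p = 0.035) for diet were still called.

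The muscle values moved with the spread of the whole array. The SD of all log2 values on an array was 1.59 to 1.70 in the 4 high-fat B6 arrays and 1.57 in low-fat 129S6 replicate 9, against 1.80 to 1.88 in the other 10. In replicate 9 of low-fat 129S6 muscle, Il11 measured 6.96, Il27ra 8.81, Cx3cl1 7.91, Cxcl14 6.73 and Il6st 6.35, as in the high-fat B6 arrays and apart from the other low-fat 129S6 arrays. The median over members of the value minus the gene's muscle mean was 0.05 to 0.26 in high-fat B6 arrays and 0.16 in replicate 9, and negative in the rest. The lowest tertile of all genes by muscle mean shifted much alike. Its medians were 0.06 to 0.23 in high-fat B6 arrays and 0.15 in replicate 9, and negative in the rest, so the shift was not particular to the members. With the array SD as a covariate, 0 members were called for diet in B6 and 0 for strain on the high-fat diet, and the differences of Il11 (-0.08), Il27ra (-0.07) and, for strain, Ccl1 (-0.03) turned negative. With quantile normalization 9 were called for diet (6 higher, 3 lower) and 7 for strain (5 higher, 2 lower), Cxcl14 lower in both. Without replicate 9 of low-fat 129S6, 37 were called for diet (34 higher, 3 lower) and 31 for strain (27 higher, 4 lower). Without low-fat B6 replicate 13 or 14 diet called 0, without high-fat B6 replicate 7 it called 2 and strain 6, and without high-fat B6 replicate 6 diet called 9 and strain 8. The test between the strains called 4 without high-fat B6 replicate 5, 2 without low-fat 129S6 replicate 10 or 11 and 1 without replicate 9. Strain called 9, 8 and 6 without high-fat 129S6 replicate 1, 3 or 4, and diet 11 without low-fat B6 replicate 15. The part of array spread in these counts was not tested beyond these fits.

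**Figure D4:**
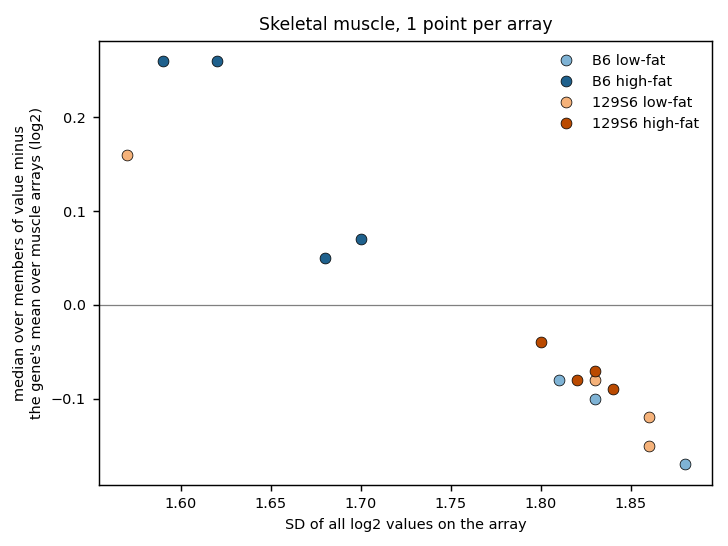
Median deviation of the 83 members from their muscle means against the SD of all log2 values on the array, 1 point per muscle array. The 4 high-fat B6 arrays and low-fat 129S6 replicate 9 have an SD of 1.57 to 1.70 and positive medians, and the other 10 arrays have an SD of 1.80 to 1.88 and negative medians. The lowest tertile of all genes by signal, not drawn, had medians of the same signs in these arrays.

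Markers of other cell types also differed between the muscle groups, on arrays that include those of low spread. The part of array spread in these marker calls was not tested. With diet in B6 muscle, C1qa, C1qb, C1qc and Lyz2 of the 14 macrophage markers were called lower, as were Mb and Myh4 of 6 muscle markers, Adipoq, Cidec and Retn of 5 measured adipocyte markers, Ighm (B cells) and Tie1 (endothelium). Called higher were Cd2 of the 10 measured T and NK cell markers, all 10 of which had positive differences (median 0.34), and Cdh5 and Vwf (endothelium), Msln, Pdgfra and Wt1 (fibroblasts and mesothelium), Cps1 (hepatocytes) and Adam7 and Lcn5 (epididymis). For strain on the high-fat diet, Itgam (macrophages), Lcn2 (neutrophils), Cpa3 (mast cells), Cdh5, Vwf, Msln, Pdgfra and Cps1 were called higher in B6 and C1qb, C1qc, Ighm, Tie1, Mb and Myh4 lower. Another probe set of Myh4 ran the other way in both comparisons. It averaged 7.54 in high-fat B6 muscle, 7.11 in low-fat B6 and 7.27 in high-fat 129S6 muscle. Summed macrophage markers had a log2 level of 10.48 to 10.64 in high-fat and 10.82 to 11.7 in low-fat B6 muscle. Their part was not tested. Of the 50 pathway genes, 4 were higher (Ccrl2, Ptpn11, Relb and Stat5b) and 1 lower (Stat6) for diet in B6, 10.0% against 26.8% of all genes. For strain on the high-fat diet 7 were higher and 1 lower, 16.0% against 29.3%.

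Across tissues, averaged over the 4 groups of strain and diet, 48 members differed between fat and liver (57.8%, against 57.7% of all genes), 59 between fat and muscle (71.1%, against 71.5%) and 51 between liver and muscle (61.4%, against 68.0%). Of the 48, 19 were higher in fat (29.1% of all genes were) and 29 lower (28.7%). Of the 59, 16 were higher in fat (30.4% of all genes) and 43 lower (41.1%). Of the 51, 12 were higher in liver (24.6% of all genes) and 39 lower (43.4%). By these tests 13 members were highest in fat (15.7%, against 17.8% of all genes), 9 in liver (10.8%, against 13.6%) and 27 in muscle (32.5%, against 29.1%), and 34 were highest in no 1 tissue (41.0%, against 39.5%). Each run, as read from the title numbers, held a single tissue, so tissue and array run cannot be told apart in these fits. The numbers of low-fat B6 liver follow directly on those of muscle, and a run shared by these arrays was not tested. These counts include the muscle arrays of low spread.

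Those at least 1 log2 unit above both other tissues were Ccl2, Ccr2 and Il10rb in fat (3.61%, against 3.88% of all genes), Cxcl14 in muscle (1.2%, against 2.88%) and none in liver (against 5.18%). Ccl2 averaged 6.93 ± 1.49 in fat (SD over arrays, n = 14), against 4.43 ± 0.72 in liver (n = 16) and 4.40 ± 0.38 in muscle (n = 15). Ccr2 averaged 5.74 ± 0.61 in fat, against 3.97 ± 0.34 and 4.19 ± 0.25. Il10rb, a shared chain of the Il10, Il22 and interferon lambda receptors, averaged 8.65 ± 0.41, against 7.27 ± 0.29 and 7.36 ± 0.35. In muscle, Cxcl14 averaged 7.18 ± 0.57, against 5.38 ± 0.16 in liver and 5.66 ± 0.18 in fat. Liver led by less, with 0.96 for Il13ra1, 0.77 for Cxcl1 and 0.75 for Cxcl12 above the next tissue. Ccl7 and Ccl8 led in fat by 0.93 and 0.84. Ccl9 averaged 10.3 in fat, 9.48 in liver and 7.31 in muscle, a fat minus muscle difference of 2.99 ± 0.12.

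**Figure D5:**
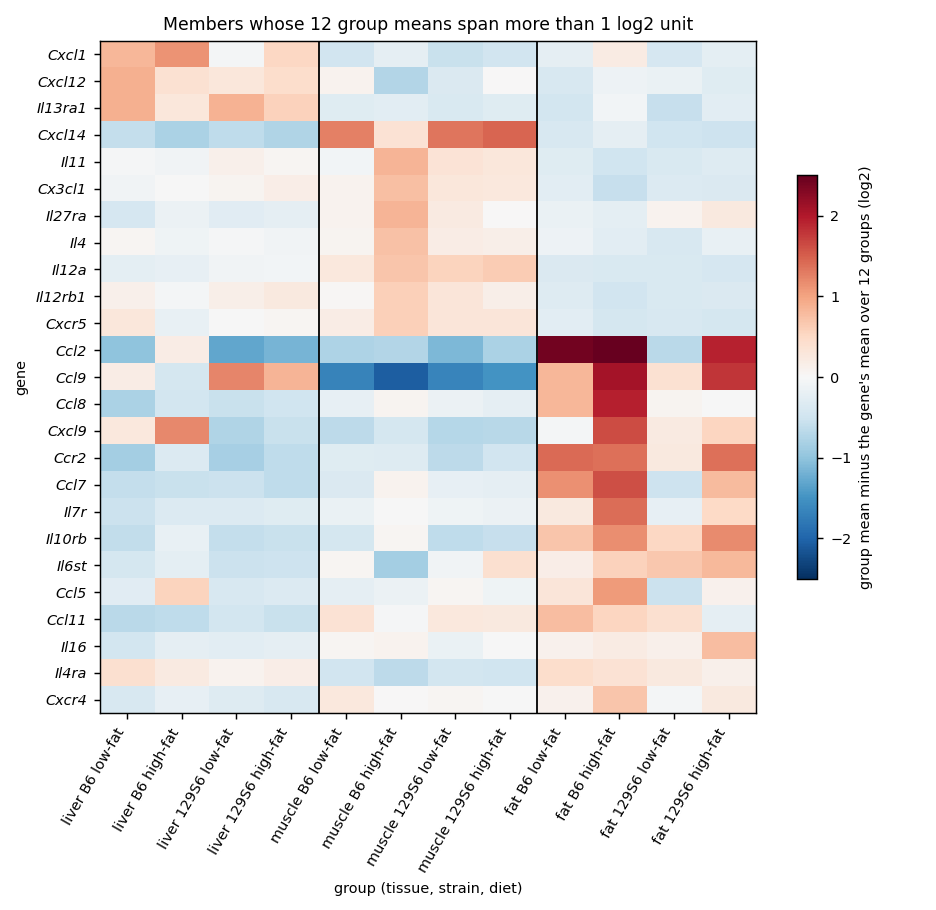
Group means of the members that span more than 1 log2 unit, each minus the gene's mean over the 12 groups of tissue, strain and diet, sorted by the tissue with the highest mean. Red is above and blue below the gene's mean, and Ccl2 spans 4.34 and Ccl9 4.15 log2 units between their highest and lowest groups.

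Over the 12 group means, the members most like Ccl2 were its receptor Ccr2 (Pearson r = 0.95), its neighbour Ccl7 (0.93) and Il10rb (0.88). These correlations are a description over 12 means that share tissues and arrays. Among members named whatever they showed, Il15, a growth factor of NK and memory T cells, had group means between 3.0 and 3.33, and those of Il6 lay between 2.97 and 3.51. Il18, a cytokine released by the inflammasome, averaged 6.16 in liver, 5.78 in fat and 5.63 in muscle. Il4ra, the shared Il4 and Il13 receptor chain, averaged 7.71 in fat, 7.63 in liver and 6.89 in muscle. Group means of Il1b lay between 4.52 and 5.35, those of Il10 between 5.03 and 5.64 and those of Il1r1 between 5.48 and 6.2.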

How the data were processed

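RNA of liver, skeletal muscle and epididymal fat was measured on 45 Affymetrix arrays of 12488 probe sets. The authors deposited log2 values per probe set made with RMA, per the labels; the values were used as deposited, with no further normalization. Symbols came from the platform annotation: 10833 probe sets name 1 gene, 396 name several and 6 of those name a member beside another gene. Control probe sets (66) were left out, and each gene was given by its probe set of highest mean in the tissue, which left 8251 genes.

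Differences were fitted with limma 3.58.1 in R 4.3.3, in each tissue over its 4 groups of strain and diet, and for tissue contrasts over all 12 groups. P-values were adjusted over all 8251 genes by Benjamini-Hochberg, with a threshold of 0.05. The fits were tested on simulated data. The members and lists were chosen with earlier results of these data known. Named genes were those past the threshold whose groups did not overlap, up to 6 with the largest difference each way; where fewer than 3 were called, also the 2 of smallest p; the 5 members that led most in each tissue; and a short list of well-known members. Alternatives changed the probe sets, normalization, filter, covariates, blocks and arrays used. RMA arrays have no counts, and the number of arrays limits the precision. Groups within a tissue share no replicate numbers. Across tissues, the deviations of samples that share a number correlated between -0.42 and 0.302, so numbers were not taken to pair samples.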

Additional observations from a re-analysis of the deposited data

Results flagged for a closer look

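In liver, 3 values, on 2 arrays, stood apart from the other 3 of their group among the 60 sets of values checked, where chance alone gives about 1 in 20. Il6ra was 5.95 in low-fat B6 replicate 4, against 6.07 to 6.09 in the others. Ccr8, a chemokine receptor of T cells, was 6.53 in the same array, against 6.67 to 6.69. Il1rn was 6.07 in high-fat B6 replicate 13, against 5.32 to 5.35, and that array also held the highest Ccl2 and Ccl5 of its group.

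The diet difference of Cxcl12 in liver differed between the strains, by -0.67 (B6 minus 129S6, limma adjusted p = 0.0446). Of 2 other probe sets of Cxcl12, 1 gave -0.53 (adjusted p = 0.0812) and the other 0.05 (adjusted p = 0.943).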

How the results depend on the processing

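Of 43 called differences of named members, 14 were called in every leave-one-out fit. Under every other alternative in which the gene was tested 7 were called, and 7 under all. The 7 called under all were in liver, and none was in fat or muscle. They were Ccl2, Il6ra and Cxcr5 for diet in B6, Ccl9 and Il6ra for low-fat strain and Ccl2 and Ccl9 for high-fat strain. In liver Ccl2 lay in the lowest tertile of genes by signal, so its calls were not tested under the filter that removed this tertile. A run block could not be fitted for diet in B6 or low-fat strain in liver. In liver, diet in B6 called 6 members without the lowest tertile of genes by signal and 6 with the array SD as covariate, which left 2 for strain on the low-fat diet. The liver test between the strains called 0 over all probe sets, 0 after quantile normalization, 3 with the 3′ to 5′ covariate and 2 with array SD. In muscle, diet in B6 called 9 (quantile), 9 (without the lowest tertile) and 0 (array SD), and strain on the high-fat diet 7, 9 and 0, and 22 with only the groups compared. The muscle test between the strains called 8 with the 3′ to 5′ covariate. With array SD, Il11 (-0.08, adjusted p = 0.899) and Il27ra (-0.07, adjusted p = 0.87) for diet, and Ccl1 (-0.03, adjusted p = 0.934) for strain, reversed. In fat, diet in B6 called 0 (array SD), 0 (only the groups compared), 1 (array run block) and 5 (without the 3 arrays of high Gapdh 3′ to 5′ difference, chosen after seeing the data). With the 3′ to 5′ covariate, diet in B6 fat called 2. Diet in 129S6 called 1 (3′ to 5′ covariate), 0 (run block) and 0 (1 run alone, chosen after seeing the data). Strain on the low-fat diet called 1 (without the lowest tertile), 5 (3′ to 5′ covariate), 7 (only the groups compared), 0 (run block) and 7 (without the 3 arrays), and on the high-fat diet 4 (3′ to 5′ covariate), 0 (run block) and 2 (without the 3 arrays). Between tissues, fat and liver differed in 22 members without the lowest tertile and 28 in low-fat B6 alone, fat and muscle in 24 and 18, and liver and muscle in 22 and 20. The causes were not tested; the tertile filter and single groups test fewer genes or arrays. With the replicate block, fat against liver called 48, fat against muscle 59 and liver against muscle 52. No paired analysis was possible within a tissue because its groups share no replicate numbers.

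Leaving out 1 array at a time gave 5 to 14 for diet in B6 liver, 0 in 129S6 liver, 3 to 9 and 2 to 4 for strain on the low-fat and high-fat diet and 0 to 3 for the test between strains. In muscle these were 0 to 37, 0, 0, 6 to 31 and 0 to 4 (in the order diet in B6, diet in 129S6, strain on the low-fat diet, strain on the high-fat diet, test between strains). In fat, in that order, they were 0 to 3, 0 to 4, 1 to 5, 1 to 8 and 0 to 1. Between tissues they were 44 to 52 for fat and liver, 56 to 61 for fat and muscle and 45 to 53 for liver and muscle. RMA gives no detection call, so a limit from signal over background was not set.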
